A study of Homo sapiens with 24 samples.

Results

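The KLF genes encode Krüppel-like factors, transcription factors that bind GC-rich and CACCC-type DNA through zinc fingers at their C-terminal end. Members were taken by symbol, as every listed gene named KLF followed by a number. This gave 11 of the 7223 genes listed: KLF2, KLF4, KLF5, KLF6, KLF8, KLF9, KLF12, KLF13, KLF14, KLF15 and KLF16. Of these, 10 stood in all 24 libraries, and KLF14 was listed in the batch 2 files.

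Krüppel-like factors fall into subfamilies by the proteins that their N-terminal parts bind. KLF2, KLF4, KLF5 and KLF6 act largely as activators through acetyltransferases, KLF8 and KLF12 bind the corepressor CtBP, and KLF9, KLF13, KLF14 and KLF16 bind the corepressor SIN3A. In the intestinal epithelium KLF5 is found in dividing crypt cells and promotes proliferation, while KLF4 is found in differentiating cells and restrains it. Several KLF genes, among them KLF2, KLF4 and KLF6, are also known as fast-responding genes with short-lived transcripts.

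TT-seq, which labels and sequences newly made RNA, was run in DLD1, an established human colorectal adenocarcinoma line, to compare the endonuclease and phosphatase parts of the Integrator complex. Its RNA-cutting subunit is INTS11, and INTS8 is needed to recruit the phosphatase PP2A. Tagged proteins are degraded when the compound dTAG13 is added. The INTS11 line carried the tag on INTS11, the INTS8 line carried it on INTS8, and the N211del line carried it on INTS8 with the INTS8 variant N211del added. In batch 1 each line received DMSO, the vehicle, or dTAG13 for 3 h. In batch 2 the INTS11 and N211del lines received dTAG13 for 0, 1 or 3 h, with no separate vehicle group, so 0 h is the control. Each of the 12 groups had 2 libraries, described as biological duplicates. Values are given in the order replicate 1, replicate 2. The labels do not say whether a line is 1 clone.

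The deposited values are headed FPKM and behave as whole-number units per kilobase of gene body. In batch 1 the libraries held 5517104 to 8119831 such units in all, and in batch 2 they held 8709275 to 11266619. Replicate libraries correlated across genes at 0.994 or above (Pearson, genes not being independent replicates). In 6 of the 12 groups the replicates differed by no more than sampling noise; both were kept, and averaging them was run as an alternative. The libraries carried 7 of 12 epithelial markers used as a check in batch 1 and 8 in batch 2, summing to 2063 to 2547 and 3152 to 3530. No marker of 10 for other cells was listed in batch 1, and COL1A1 alone was listed in batch 2, where the sum was at most 0.318. The epithelial markers VIL1, CDX1, HNF4A and ELF3 were listed in neither batch. The files list only part of all genes, so an unlisted marker is not shown to be silent. Protein loss cannot be read from these libraries, and the INTS8 and INTS11 genes are not analysed here.

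KLF5 and KLF6 were the most strongly transcribed members per kilobase. KLF5 averaged 202 in batch 1 and 246 in batch 2, above 98.9% and 99.0% of listed genes, and KLF6 averaged 132 and 280.3. KLF4 averaged 60.2 and 75.3 and KLF2 35 and 97.9, followed by KLF16 at 27.7 and 31.8 and KLF12 at 15.9 and 13.5. KLF9 averaged 10.6 and 22.2, KLF13 3.74 and 8.14, KLF8 1.14 and 0.698 and KLF15 0.919 and 0.710. KLF14 had 0 or 1 unit in each batch 2 library, a value of at most 0.219, so nothing about its change could be read at this depth. KLF15 rested on 3 to 32 units per library and the other members on 74 or more.

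The INTS11 line stood apart in batch 2, where the control levels of 4 members were far above those in batch 1. KLF2, a zinc-finger factor best known from quiescent endothelium and lymphocytes, read 20.2 and 26.7 in the INTS11 line with DMSO in batch 1 and 187 and 183 at 0 h in batch 2. The batch 2 mean was 7.87 times the batch 1 mean, a ratio above that of 99.7% of 6603 genes. The same ratio was 4.11 for KLF9, 3.99 for KLF13 and 3.2 for KLF6, against a median over all genes of 0.901. Ratios in the N211del line were 0.853 for KLF2, 1.34 for KLF9, 1.01 for KLF13 and 1.19 for KLF6, against a median of 1.06. The batches had different controls, and batch 2 values carried a factor per library that batch 1 values did not. These ratios therefore set levels side by side, with no test, and batch and control cannot be told apart. All tests stay within a batch.

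**Figure D1:**
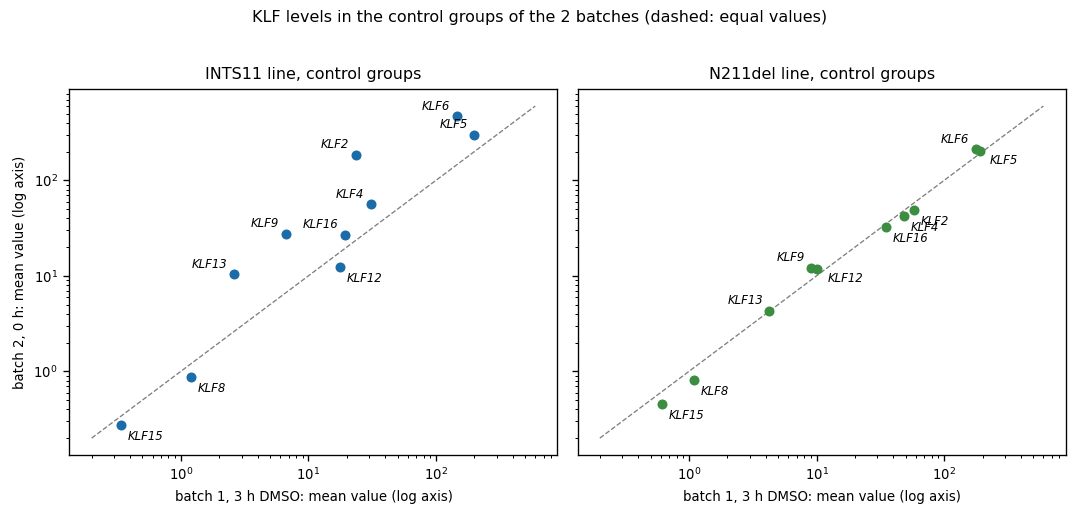
Mean level of 10 KLF genes (deposited value per kilobase, 2 libraries a point) in the 3 h DMSO group of batch 1, horizontal log axis, and the 0 h group of batch 2, vertical log axis. In the INTS11 line KLF2, KLF9, KLF13 and KLF6 lie well above the dashed line of equal values, KLF2 by 7.87 times, while in the N211del line the members lie near it.

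Changes were tested with limma on log2(value + 0.1) across all genes with a mean of at least 0.1 in the batch, 6579 in batch 1 and 6950 in batch 2, two-sided, with Benjamini-Hochberg adjustment over all genes tested and a threshold of 0.05. Folds are of the linear group means and log2 changes are on the log2(value + 0.1) scale, with the SE of the fit. Adding 0.1 understates the change of the low members, KLF8 and KLF15. The responses to dTAG13 ran in both directions within the family. KLF4 and KLF15 rose 2.36-fold or more in the INTS8 and N211del lines after 3 h, KLF9 rose in every line in batch 1, and KLF6 fell in every line and batch. In the INTS8 line 5 of 10 tested members were called (4 higher, 1 lower), against 55.6% of all genes (34.6% higher, 21% lower). The N211del line of batch 1 had 6 of 10 called (4 higher, 2 lower), against 55.6% (48.5% higher, 7.1% lower). The INTS11 line of batch 1 had 4 of 10 (1 higher, 3 lower), against 39.1% (19.4% higher, 19.8% lower). After 3 h in batch 2, 7 of 11 members were called in the N211del line (6 higher, 1 lower), against 63.5% (49.7% higher, 13.8% lower). For the INTS11 line of batch 2 it was 6 of 11 (2 higher, 4 lower), against 55.4% (36% higher, 19.3% lower). So the share of members called was near the background in these comparisons.

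The balance of directions changed with scaling, and the cause was not tested. The median log2 change over all genes was 0.21 in the N211del line of batch 1, 0.31 after 1 h and 0.18 after 3 h in batch 2, and 0.16 in the INTS11 line after 1 h. With libraries centred on their medians, the N211del line had 3 members higher and 3 lower in batch 1 and the same split after 3 h in batch 2. The INTS8 line then had 4 higher and 3 lower, and the INTS11 line 2 higher and 3 lower in batch 1 and 1 higher and 4 lower in batch 2. The members described first below, KLF4, KLF15 and KLF6, kept their directions after 3 h under this scaling.

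**Figure D2:**
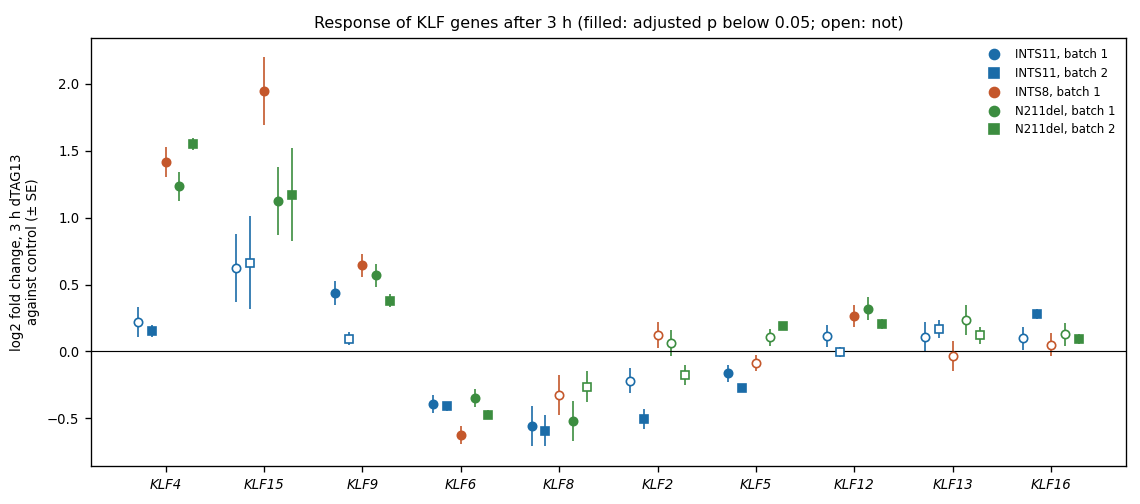
Log2 fold change of 10 KLF genes after 3 h of dTAG13 against the control of the same batch, with the SE of the limma fit as bars; filled points passed an adjusted p of 0.05 and open points did not. KLF4 and KLF15 stand highest in the INTS8 and N211del lines, and KLF6 lies below 0 in all 5 comparisons.

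KLF4, the zinc-finger factor that restrains proliferation in differentiating gut epithelium, rose strongly in the INTS8 and N211del lines and little in the INTS11 line. In the INTS8 line it read 37.4 and 34.2 with DMSO and 97.9 and 93.4 after dTAG13. The N211del line of batch 1 read 49.2 and 48.0 with DMSO and 113 and 116 after dTAG13. All treated libraries lay far above all controls of their line. The rise was 2.67-fold in the INTS8 line (log2 change 1.42 ± 0.11, adjusted p = 2.39e-07) and, for the N211del line, 2.36-fold (1.23 ± 0.11, adjusted p = 8.93e-07). These changes lay above those of 95.7% and 94.5% of genes in turn. For the INTS11 line of batch 1, KLF4 read 26.0 and 35.6 with DMSO and 35 and 36 after dTAG13. These groups overlapped, and the change of 0.22 ± 0.11 did not pass (adjusted p = 0.134). With 1 library left out it ranged from -0.0043 to 0.45, highest without DMSO replicate 2, so it depended on single libraries.

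The time course showed the same contrast between lines. In the N211del line KLF4 read 42.0 and 41.7 at 0 h, 112 and 105 at 1 h, and 122 and 124 at 3 h. It had risen 2.60-fold by 1 h (1.37 ± 0.05, adjusted p = 1.67e-08) and 2.93-fold by 3 h (1.55 ± 0.05, adjusted p = 8.63e-09), so most of the rise was present at 1 h. The further rise from 1 to 3 h was 0.18 ± 0.05 (adjusted p = 0.0175), and it did not pass without 1 h replicate 2 or 3 h replicate 2 (0.13 to 0.16). The INTS11 line read 58.3 and 54.3 at 0 h, 59.0 and 60.7 at 1 h, and 60.6 and 64.5 at 3 h. That is 1.11-fold at 3 h (0.15 ± 0.05, adjusted p = 0.0215), which passed by a small margin, became -0.11 after correction for gene length and did not pass without 0 h replicate 2 (0.10) or 3 h replicate 2 (0.11). The 4 calls in the INTS8 and N211del lines held in all 22 alternatives, with log2 changes from 0.97 to 1.57.

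KLF15, which drives amino acid and lipid catabolism genes and is induced by glucocorticoids in other tissues, was barely transcribed in the controls. In the INTS8 line it read 0.541 and 0.406 with DMSO and 2.17 and 2.03 after dTAG13, or 8 and 6 units against 32 and 30. The N211del line of batch 1 read 0.677 and 0.541 with DMSO and 1.22 and 1.69 after dTAG13. Treated and control libraries did not overlap in either line. KLF15 rose 4.43-fold in the INTS8 line (1.95 ± 0.25, adjusted p = 1.53e-05) and, for the N211del line, 2.39-fold (1.12 ± 0.25, adjusted p = 0.00183), and both calls held in all 21 alternatives that could test it. These changes lay above those of 98% and 93.2% of genes in turn. In batch 2 the N211del line read 0.381 and 0.539 at 0 h, 1.27 and 1.12 at 1 h and 1.1 and 1.2 at 3 h, a 2.60-fold rise at 1 h (adjusted p = 0.0104) and 2.50-fold at 3 h (adjusted p = 0.0149). These held in 16 and 18 of 21 alternatives. Both calls were lost without 0 h replicate 1, the 1 h call also without 1 h replicate 1 and the 3 h call without 3 h replicate 2, with adjusted p of 0.0524 to 0.0907.

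Replicates of the INTS11 line were uneven for KLF15. It read 0.203 and 0.474 with DMSO and 0.541 in both libraries after dTAG13 in batch 1 (0.62 ± 0.25, adjusted p = 0.0672). In batch 2 it read 0.283 and 0.272 at 0 h, 0.439 and 0.838 at 1 h, and 0.765 and 0.312 at 3 h. The 1 h change of 0.91 ± 0.35 passed (adjusted p = 0.0484) but held in 6 of 21 alternatives and dropped to 0.51 (adjusted p = 0.301) without 1 h replicate 2. The 3 h change of 0.66 ± 0.35 did not pass (adjusted p = 0.134). With 1 library left out it ranged from 0.129 to 1.197, highest without 3 h replicate 2. The batch 1 change then ranged from 0.16 to 1.08, highest without DMSO replicate 2. Both changes that did not pass thus depended on single libraries.

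KLF6, a broadly expressed activator known for growth control and for a role in injury responses, fell in every line and batch. With DMSO it read 136 and 156 in the INTS11 line, 131 and 137 in the INTS8 line, and 172 and 182 in the N211del line. After 3 h of dTAG13 these lines read 111 in both libraries, 87.4 and 86.1, and 133 and 145. No treated library reached a control of its own line. The fall was 24% in the INTS11 line (-0.39 ± 0.07, adjusted p = 0.000129), 35.3% in the INTS8 line (-0.63 ± 0.07, adjusted p = 8.2e-08) and, for the N211del line, 21.5% (-0.35 ± 0.07, adjusted p = 0.000183).

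Batch 2 gave the same direction from a higher starting level in the INTS11 line. KLF6 read 479 and 458 at 0 h there, 361 and 356 at 1 h, and 349.6 and 355 at 3 h, a fall of 24.9% by 3 h (-0.41 ± 0.03, adjusted p = 1.09e-05). The N211del line read 207 and 215 at 0 h, 138 and 142 at 1 h, and 152 in both libraries at 3 h. It was down 33.9% at 1 h (-0.60 ± 0.03, adjusted p = 2.36e-07) and 27.9% at 3 h (-0.47 ± 0.03, adjusted p = 1.25e-06). The small rise back from 1 to 3 h was 0.12 ± 0.03 (adjusted p = 0.0161), and leaving out 1 h replicate 1 or either 3 h library ended that call. KLF6 was lower in all 5 comparisons of 3 h, as were 144 of 6569 genes tested in both batches (2.19%), and each fall against the control held in all 22 alternatives. No member was higher in all 5, as were 797 genes (12.1%).

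**Figure D3:**
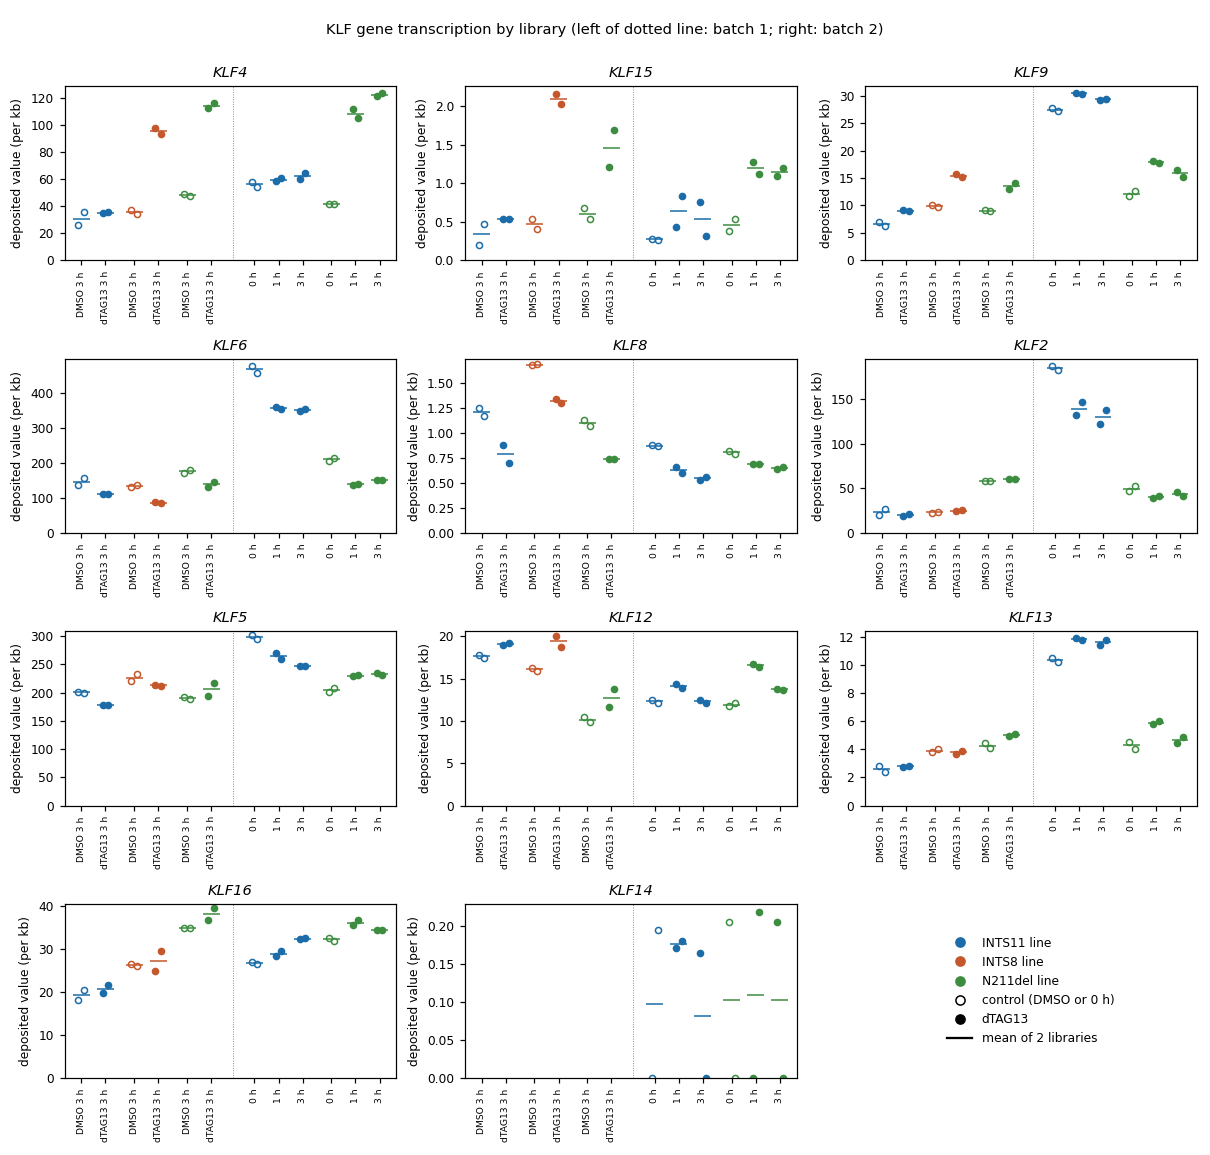
Deposited value per kilobase of the 11 KLF genes in each library, with linear axes from 0; open points are controls, filled points dTAG13, short lines the mean of 2 libraries, and KLF14 was listed in batch 2 only. KLF4 treated libraries of the INTS8 and N211del lines lie between 93.4 and 124 with all other KLF4 libraries at 64.5 or below, and KLF6 treated libraries lie below their own controls throughout.

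The promoters of KLF4, KLF15 and KLF6 are shown because 2 of these members rose and 1 fell in the INTS8 and N211del lines at 3 h of batch 1 under every alternative with a value, and because the same 6 letters stand in all 3. KLF9 also rose in both lines there under every alternative, but its promoter lacks these letters and is not shown. The shared letters are thus part of the choice and not a result. The sequences are the 250 bases before the RefSeq start on GRCh38.p14, read 5′ to 3′ on the gene's strand, and capitals mark CACGTG, the core of the E-box bound by MYC and related factors.
KLF4, chr9:107489770-107490019, strand minus: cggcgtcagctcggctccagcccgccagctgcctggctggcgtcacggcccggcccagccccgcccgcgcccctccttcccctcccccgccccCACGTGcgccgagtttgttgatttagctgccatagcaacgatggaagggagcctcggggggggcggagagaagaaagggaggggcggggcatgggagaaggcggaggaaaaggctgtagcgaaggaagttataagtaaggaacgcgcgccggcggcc
KLF15, chr3:126357409-126357658, strand minus: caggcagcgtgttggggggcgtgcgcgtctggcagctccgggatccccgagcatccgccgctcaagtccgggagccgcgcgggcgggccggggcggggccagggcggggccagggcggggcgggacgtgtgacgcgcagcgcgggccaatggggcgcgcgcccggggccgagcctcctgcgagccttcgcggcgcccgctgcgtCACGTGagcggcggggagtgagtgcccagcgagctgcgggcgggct
KLF6, chr10:3785210-3785459, strand minus: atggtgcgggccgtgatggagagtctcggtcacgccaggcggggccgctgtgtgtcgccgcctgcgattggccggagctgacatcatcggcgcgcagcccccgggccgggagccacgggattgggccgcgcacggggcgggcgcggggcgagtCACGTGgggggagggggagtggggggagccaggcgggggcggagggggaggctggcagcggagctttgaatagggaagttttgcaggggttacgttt
CACGTG, which reads the same on both strands, began 157 bases before the start in KLF4, 46 bases in KLF15 and 97 bases in KLF6. It stood in 3 of the 18 KLF promoters of 300 bases (250 before and 50 after the start, all starts of the 11 members) and in 7.26% of 35116 promoters. KLF6 fell while KLF4 and KLF15 rose, so the letters stood beside changes of either direction. The GC-box letters GGGCGG, searched on both strands, were in 12 of the 18 KLF promoters and in 45% of all promoters. Those 12 belong to 10 of the 11 members, some of which have several starts. The MEF2 box was found in 2 of the 18, of KLF2 and KLF12, and in 2.99% of all. The CArG box, the serum response element core, was in none of the 18 and in 1.29% of all. GC content was 69% in the KLF4 promoter, 70.7% in KLF6 and 80.3% in KLF15, against a median of 58.7%. Over the 18 KLF promoters it ran from 32.7% in KLF9 to 86% in KLF16. A match of letters is a description and not a bound site.

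KLF2 fell in batch 2 and did not pass in batch 1. There the INTS11 line read 187 and 183 at 0 h, 132 and 146 at 1 h, and 122 and 138 at 3 h. The control libraries lay above all treated ones, and the fall was 24.5% at 1 h (-0.41 ± 0.08, adjusted p = 0.00162) and 29.4% at 3 h (-0.51 ± 0.08, adjusted p = 0.000515). The N211del line read 46.7 and 52.1 at 0 h, 39.0 and 40.9 at 1 h, and 45.5 and 41.9 at 3 h. The 1 h fall was 19.2% (-0.30 ± 0.08, adjusted p = 0.00546), and the 3 h change of -0.18 ± 0.08 did not pass (adjusted p = 0.0693). In batch 1 the log2 changes were -0.22 in the INTS11 line, where the groups overlapped, 0.12 in the INTS8 line and 0.06 in the N211del line, with adjusted p of 0.0777, 0.286 and 0.595. The first passed, at -0.42 (adjusted p = 0.000639), without DMSO replicate 1.

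KLF5, the proliferation-linked factor of crypt cells, fell in the INTS11 line in both batches and rose in the N211del line of batch 2, where the direction turned with centred libraries. The INTS11 line read 302 and 294 at 0 h, 269.6 and 260.3 at 1 h, and 247 in both libraries at 3 h of batch 2. The groups did not overlap and the fall was 17.2% at 3 h (-0.27 ± 0.03, adjusted p = 7.57e-05). The N211del line read 200.4 and 208 at 0 h and 234 and 231 at 3 h, a rise of 13.8% (0.19 ± 0.03, adjusted p = 0.000436). That rise lay near the median over all genes (0.18), with 50.7% of genes below it, and it became -0.0091 when centred. In batch 1 the INTS11 line read 202 and 199 with DMSO and 178 and 179 after dTAG13 (-0.17 ± 0.06, adjusted p = 0.0377), a call that was lost in 8 of 12 fits with 1 library left out. The changes of -0.09 in the INTS8 line and 0.11 in the N211del line of batch 1 did not pass (adjusted p = 0.238 and 0.154). The latter turned into a called fall with centring (-0.16, adjusted p = 0.00745) and with the correction for gene length (-0.10, adjusted p = 0.0294).

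Of the CtBP-binding members, KLF8 was called lower in 3 of the 5 comparisons of 3 h and KLF12 higher in 3, of which that of batch 2 turned with a correction for gene length. KLF8, an X-linked repressor, read 1.24 and 1.17 with DMSO and 0.877 and 0.702 after dTAG13 in the INTS11 line of batch 1. The N211del line of batch 1 read 1.13 and 1.07 with DMSO and 0.736 and 0.733 after dTAG13. Controls lay above treated libraries in both, and the falls were 34.5% (-0.56 ± 0.15, adjusted p = 0.00551) and 33.1% (-0.52 ± 0.15, adjusted p = 0.00547). The first dropped to -0.42 (adjusted p = 0.122) without dTAG13 replicate 2. KLF8 in the INTS11 line of batch 2 read 0.877 and 0.865 at 0 h and 0.529 and 0.558 at 3 h, a fall of 37.6% (-0.59 ± 0.12, adjusted p = 0.00217). In the INTS8 line it read 1.68 in both DMSO libraries and 1.33 and 1.30 after dTAG13 without passing (-0.33 ± 0.15, adjusted p = 0.0691), as in the N211del line of batch 2 (-0.26 ± 0.12, adjusted p = 0.0743).

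KLF12, a repressor first known for its action on the AP-2alpha gene, read 16.3 and 15.9 with DMSO and 20.1 and 18.7 after dTAG13 in the INTS8 line (0.26 ± 0.09, adjusted p = 0.0116). That call was lost without DMSO replicate 2 or dTAG13 replicate 1 (0.21 to 0.25). The N211del line of batch 1 read 10.4 and 9.85 with DMSO and 11.7 and 13.7 after dTAG13, a rise of 25.4% (0.32 ± 0.09, adjusted p = 0.00304) that was 0.20 without dTAG13 replicate 2. In batch 2 the N211del line read 11.7 and 12.1 at 0 h, 16.7 and 16.4 at 1 h, and 13.7 in both libraries at 3 h. KLF12 was thus higher at 1 h (0.47 ± 0.04, adjusted p = 2.76e-06) than at 3 h. Its fall from 1 to 3 h was -0.27 ± 0.04 (adjusted p = 0.00107), against a median over all genes of -0.13. The 3 h change of 0.20 ± 0.04 (adjusted p = 0.00111) became -0.09 after correction for gene length. The INTS11 line read 12.5 and 12.1 at 0 h and 14.4 and 13.8 at 1 h (0.20 ± 0.04, adjusted p = 0.00185), a call kept in 12 of 12 fits with 1 library left out but lost with centring (0.041) and the length correction (0.025). KLF12 is the longest member, at 447837 bases by the length implied in the values, next to KLF8 at 383248 and far above KLF2 at 3858.

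**Figure D4:**
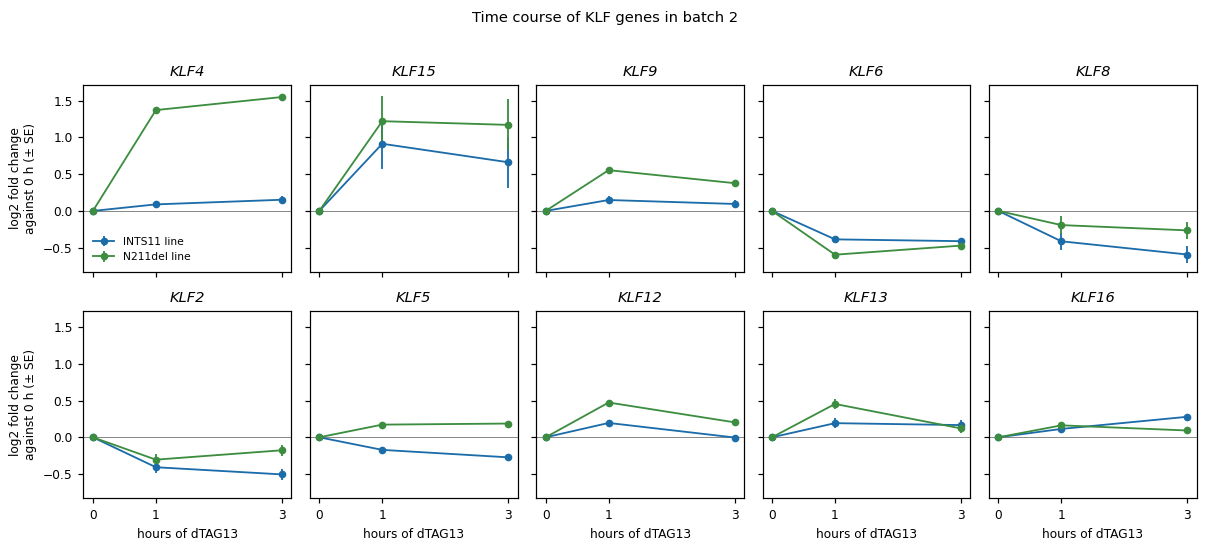
Log2 fold change of 10 KLF genes against 0 h in batch 2 at 1 and 3 h of dTAG13, with the SE of the limma fit as bars, for the INTS11 and N211del lines. KLF4 climbs to 1.37 at 1 h and 1.55 at 3 h in the N211del line and stays at 0.15 or below in the INTS11 line. KLF9, KLF12 and KLF13, among others, peak at 1 h in the N211del line. The median over all genes does so there too, at 0.31 at 1 h and 0.18 at 3 h.

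Among the SIN3A-binding members, KLF9 rose most often. KLF9, a repressor induced by glucocorticoid and thyroid hormones, read 7.02 and 6.35 with DMSO and 9.14 and 9.0 after dTAG13 in the INTS11 line of batch 1. In the INTS8 line it read 10.0 and 9.68 with DMSO and 15.7 and 15.2 after dTAG13. The N211del line read 9.17 and 9.0 with DMSO and 12.9 and 14.2 after dTAG13. Treated libraries lay above controls in each line, and the rises were 1.36-fold (0.44 ± 0.09, adjusted p = 0.000426), 1.57-fold (0.64 ± 0.09, adjusted p = 1.48e-06) and 1.49-fold (0.57 ± 0.09, adjusted p = 7.53e-06). All 3 held in all 22 alternatives, and they lay above the changes of 87.2%, 84.3% and 79.2% of genes in turn.

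In batch 2 KLF9 rose in the N211del line from 11.6 and 12.7 at 0 h to 18.0 and 17.7 at 1 h (0.56 ± 0.05, adjusted p = 4.89e-06) and stood at 16.4 and 15.2 at 3 h (0.38 ± 0.05, adjusted p = 9.45e-05). The INTS11 line started from its higher batch 2 control of 27.7 and 27.2 and read 30.5 and 30.4 at 1 h and 29.2 and 29.4 at 3 h. The 1 h change of 0.15 ± 0.05 passed (adjusted p = 0.0254) but lay at the median over all genes, and it became -0.0054 when centred. The 3 h change of 0.09 ± 0.05 did not pass (adjusted p = 0.124).

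KLF13, a SIN3A-binding factor known in lymphocytes and heart, rose at 1 h in both lines of batch 2 and passed in none of the 5 comparisons of 3 h by limma, the nearest being the INTS11 line of batch 2 (0.17 ± 0.06, unadjusted p = 0.0291, adjusted p = 0.0522). The N211del line read 4.54 and 4.06 at 0 h, 5.81 and 6.04 at 1 h, and 4.44 and 4.93 at 3 h. The 1 h libraries stood above both other times, with a rise of 37.7% (0.45 ± 0.06, adjusted p = 0.000147) and a later fall of -0.33 ± 0.06 (adjusted p = 0.0043). The medians over all genes for these 2 steps were 0.31 and -0.13. The INTS11 line averaged 10.4 ± 0.177 at 0 h and 11.9 ± 0.130 at 1 h (SD, n = 2), without overlap (log2 change 0.19 ± 0.06, adjusted p = 0.029), a call lost with centring (0.039) and in 4 of 12 fits with 1 library left out. KLF16, a GC-box-binding repressor, read 26.9 and 26.4 at 0 h, 28.3 and 29.5 at 1 h, and 32.3 and 32.5 at 3 h in the INTS11 line. It rose 21.4% by 3 h (0.28 ± 0.03, adjusted p = 0.000155), and the treated libraries did not overlap the controls. For the N211del line the 3 h change of 0.09 ± 0.03 (adjusted p = 0.0405) was below the median over all genes and became -0.10 when centred. That call was lost in 8 of 12 fits with 1 library left out. KLF16 did not pass in batch 1, with log2 changes of 0.05 to 0.13 in the 3 lines. KLF14 had too few units for a test to inform, with 0 or 1 in each library.

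At 1 h, 9 of 11 members were called in the N211del line (7 higher, 2 lower), against 71% of all genes (66% higher, 4.92% lower). In the same way 9 of 11 were called in the INTS11 line (5 higher, 4 lower), against 55.9% (46% higher, 9.86% lower). With libraries centred on their medians these became 3 higher and 5 lower, and 0 higher and 4 lower. From 1 to 3 h, 5 of 11 were called in the N211del line (2 higher, 3 lower), against 37.2% (2.2% higher, 35% lower). The INTS11 line had 2 of 11 (1 higher, 1 lower), against 15.6% (0.475% higher, 15.1% lower). Centred, these were 4 higher and 1 lower, and 1 higher and 0 lower. KLF12 fell by 0.20 and KLF16 rose by 0.17 in the INTS11 line, and both calls were lost without 1 h replicate 1 or either 3 h library.

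The responses of the lines were compared directly, as a difference of log2 changes within a batch. KLF4 responded more in the INTS8 than in the INTS11 line, by 1.2 ± 0.16 (adjusted p = 0.00011), and more in the N211del than in the INTS11 line, by 1.01 ± 0.16 in batch 1 (adjusted p = 0.000334), 1.28 ± 0.07 at 1 h (adjusted p = 2.32e-06) and 1.40 ± 0.07 at 3 h of batch 2 (adjusted p = 9.17e-07). KLF15 also differed between the INTS8 and INTS11 lines, by 1.33 ± 0.36 (adjusted p = 0.014). That value was 0.87 without INTS11 DMSO replicate 2, and the call was lost without INTS8 dTAG13 replicate 1 (adjusted p = 0.0512). KLF5 differed between the N211del and INTS11 lines by 0.46 ± 0.04 at 3 h of batch 2 (adjusted p = 2.98e-05), and KLF9 by 0.41 ± 0.07 at 1 h (adjusted p = 0.00103). Between the 2 lines with tagged INTS8, 0 of the 10 members tested were called by limma, against 11.1% of all genes (9.04% higher, 2.01% lower). At an unadjusted p of 0.05, 3 of 10 would pass (KLF5, KLF6 and KLF15, named after their values were seen), and with only the 8 libraries of that contrast 2 of 10 were called. The N211del line minus the INTS8 line was -0.82 ± 0.36 for KLF15 (adjusted p = 0.13), below all but 0.897% of genes. This value ranged from -1.05 to -0.60 with 1 library left out, and it passed without INTS11 DMSO replicate 1 or 2 (adjusted p = 0.0247 and 0.0255), libraries that enter only the shared spread. For KLF6 the difference was 0.28 ± 0.10 (adjusted p = 0.063), for KLF5 0.19 ± 0.09 (adjusted p = 0.13) and for KLF4 -0.18 ± 0.16 (adjusted p = 0.426).

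In all, 2 of 10 members differed between the INTS8 and INTS11 lines, both higher, against 25.4% of all genes (19.4% higher, 6% lower). Between the N211del and INTS11 lines of batch 1 it was 2 of 10, both higher, against 48.5% (43.7% higher, 4.8% lower). Batch 2 gave 6 of 11 at 1 h, against 48.6% (39.3% higher, 9.24% lower), and 6 of 11 at 3 h, against 50.9% (35.8% higher, 15.2% lower). With centring, the splits of higher and lower became 2 and 1, 1 and 1, 3 and 1, and 2 and 2, against 2 and 0, 2 and 0, 5 and 1, and 5 and 1.

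Before any dTAG13 the values already differed between lines, in KLF genes as in many other genes. In batch 1, KLF2 read 57.8 and 58.1 in the N211del line with DMSO against 22.8 and 23.1 in the INTS8 line. It was 2.53 times higher (1.33 ± 0.10, adjusted p = 3.64e-08), a change above that of 99.9% of genes. KLF4, KLF6 and KLF16 were also higher in the N211del line, by 1.36, 1.32 and 1.33 times, and KLF12 was lower by 1.59 times (-0.66 ± 0.09, adjusted p = 1.59e-06). In all 7 of 10 members were called (4 higher, 3 lower), against 63.7% of genes (5.03% higher, 58.7% lower). Since the median over all genes was -0.30 here, the split with centred libraries was 6 higher and 1 lower. The N211del DMSO libraries held 5614822 and 5517104 units in all, and the INTS8 DMSO libraries 7311323 and 7419322. No depth factor is known for batch 1, and the part of depth in these differences was not tested.

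The INTS8 line had 5 of 10 members above the INTS11 line with DMSO, against 30.7% of genes called (26.8% higher, 3.91% lower). KLF13 was 1.5 times higher (0.57 ± 0.11, adjusted p = 0.00044), KLF9 1.47 times (0.56 ± 0.09, adjusted p = 2.96e-05) and KLF16 1.36 times (0.44 ± 0.08, adjusted p = 0.000314). KLF8 and KLF5 were higher by 1.39 and 1.13 times, and both calls were lost when any 1 of the 4 libraries of these groups was left out. Centring gave 4 higher and 2 lower. At 0 h of batch 2, 7 of 11 members differed between the N211del and INTS11 lines (1 higher, 6 lower), against 70% of genes (38.4% higher, 31.6% lower). KLF2 was 3.74 times lower in the N211del line, KLF13 2.41 times, KLF9 2.26 times and KLF6 2.22 times. The DMSO means of batch 1 ran the other way, without a test: for the N211del and INTS11 lines in turn they were 57.9 and 23.5 for KLF2, 4.27 and 2.60 for KLF13, 9.09 and 6.69 for KLF9, and 177 and 146 for KLF6. These are the members whose level in the INTS11 line was highest relative to batch 1, and the part of that in the line difference was not tested.

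Ordered by group mean within batch 1, KLF4 was highest in the treated N211del line (115 ± 2.59, SD, n = 2) and next in the treated INTS8 line (95.6 ± 3.17). The N211del controls followed (48.6 ± 0.863), and the INTS8 controls, treated INTS11 line and INTS11 controls (35.8, 35.5 and 30.8) overlapped their neighbours. In batch 2 the order was N211del at 3 h (123 ± 1.86), N211del at 1 h (109 ± 4.71), the INTS11 line at 3, 1 and 0 h (62.6, 59.9 and 56.3), of which 3 h and 1 h overlapped, and N211del at 0 h (41.8 ± 0.19). KLF6 in batch 1 ran from the N211del controls (177 ± 6.76) through the INTS11 controls (146 ± 14.1), treated N211del (139 ± 8.83) and INTS8 controls (134 ± 3.92), each of the first 2 of these 3 overlapping the next, to treated INTS11 (111) and treated INTS8 (86.8 ± 0.922). In batch 2 the INTS11 groups at 0, 1 and 3 h (469, 358 and 352) stood above all N211del groups.

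The 12 group means, each batch centred on its own mean, were used to find the genes most like each member, as Pearson r of log2 levels over 12 groups that share the batch 2 shift of the INTS11 line. The genes named were picked for the highest r among 6569 genes, so a high r is part of the choice. KLF4 was closest to MKNK2 (0.985), a kinase of the translation factor eIF4E, and FAM107B (0.984). KLF6 was closest to HOXB9 (0.963) and TNFAIP8L1 (0.951), KLF2 to RHOB (0.945) and MIDN (0.939), and KLF13 to RTN2 (0.986) and PLLP (0.983). KLF9 was close to ARHGAP40 (0.980), KLF12 to COP1 (0.980) and COMMD10 (0.978), KLF5 to TBC1D20 and ARL1 (0.923 each), and KLF16 to TENT5B (0.957) and IQGAP2 (0.951). Within the family the highest r were 0.919 for KLF4 and KLF15, 0.883 for KLF9 and KLF13, 0.870 for KLF2 and KLF13, and 0.859 for KLF2 and KLF6. The lowest were -0.672 for KLF6 and KLF15, -0.641 for KLF2 and KLF12, and -0.577 for KLF12 and KLF16.

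No member overlapped another gene listed in the files, by RefSeq positions on GRCh38.p14. KLF4 lies between RAD23B and CTNNAL1 among the listed genes. RAD23B had log2 changes of -0.35 in the INTS11 line, -0.16 in the INTS8 line and 0.01 in the N211del line of batch 1, and of -0.44 and 0.01 in the INTS11 and N211del lines of batch 2. CTNNAL1 had log2 changes of 0.08 in the INTS11 line (adjusted p = 0.386), 0.36 in the INTS8 line (adjusted p = 0.000278) and, for the N211del line, 0.71 (adjusted p = 4.19e-08) in batch 1. After 3 h in batch 2 it rose by 0.36 in the INTS11 line (adjusted p = 0.000198) and, for the N211del line, by 0.33 (adjusted p = 0.000187). KLF5 and KLF12 neighbour each other among the listed genes of chromosome 13. Some neighbours of other members changed more. In the INTS8 line CEMIP2, next to KLF9, rose by 1.02, with PTAR1 on the other side at -0.02. CHRNA7, next to KLF13, rose there by 3.36, with TJP1 on the other side at 0.10. AKR1E2, next to KLF6, rose there by 1.13 while KLF6 fell, with WDR37 on the other side at -0.42. Whether neighbours share a response was not tested.

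Genes that work with KLF factors were read from lists chosen with results of these data known, and their counts are a description. The SP factors, the nearest relatives of the KLF family, had 3 of 5 tested genes higher and 1 lower in the INTS8 line (34.6% and 21% of all genes), with a median log2 change of 1.16 against 0.06 for all genes. After 3 h in the N211del line of batch 2 it was 4 of 7 higher and 1 lower (49.7% and 13.8% of all genes, median 1.37 against 0.18), led by SP9 (3.63 ± 0.52) and SP6 (2.89 ± 0.14). SP1, the widely expressed founder of that group, fell in the INTS8 line (-0.33 ± 0.08, adjusted p = 0.00157). The INTS11 line had 2 of 5 higher and 1 lower in batch 1 (19.4% and 19.8% of all genes) and 5 of 7 higher in batch 2 (36%).

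Among KLF corepressor genes SIN3B and SUDS3 belong to the SIN3 complex. SIN3B fell by 0.63 in the INTS11 line, SUDS3 fell by 0.49 in the INTS8 line, and SAP30 rose by 1.36 in the N211del line of batch 1. Of 6 tested in batch 1, the INTS11 line had 1 higher and 3 lower (19.4% and 19.8% of all genes), the INTS8 line 3 higher and 1 lower (34.6% and 21%), and the N211del line 2 higher and 0 lower (48.5% and 7.1%). After 3 h in batch 2 the INTS11 line had 2 higher and 2 lower (36% and 19.3%) and the N211del line 2 higher and 1 lower (49.7% and 13.8%). Of the coactivator acetyltransferases KAT2B rose by 0.50 in the N211del line of batch 1 and KAT2A by 0.46 in the INTS11 line of batch 2, and all 3 tested rose after 3 h in the N211del line of batch 2, where 49.7% of all genes did.

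Genes of pathways upstream of KLF factors were read in the same way. In the TGF-beta list SMAD6, an inhibitory SMAD, rose by 3.78 ± 0.14 in the INTS8 line, and 4 of 7 were higher and 2 lower there (34.6% and 21% of all genes). Batch 1 had 1 higher and 0 lower for the INTS11 line (19.4% and 19.8%) and 6 higher and 0 lower for the N211del line (48.5% and 7.1%). After 3 h in batch 2 it was 3 higher and 2 lower for the INTS11 line (36% and 19.3%) and 5 higher and 1 lower for the N211del line (49.7% and 13.8%). Of 6 genes feeding ERK5 and MEF2, which drive KLF2 and KLF4 in other cells, 2 were higher and 1 lower in the INTS8 line (34.6% and 21% of all genes), and MEF2A rose by 0.77 in the N211del line of batch 1 but fell by 0.25 in the INTS11 line of batch 2. Among 4 ubiquitin ligase genes that act on KLF proteins, FBXO32 rose by 2.2 ± 0.10 in the N211del line of batch 2 and WWP1 fell by 0.36 in the INTS8 line. Counts in the other comparisons for the ERK5 and MEF2 list, and any for the ligase list, are not given here.

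Genes known as KLF targets in gut epithelium are given beside the same shares of all genes. In the INTS8 line 5 of 9 were higher and 2 lower (34.6% and 21%), with a median of 0.20 against 0.06 for all genes, and in the INTS11 line of batch 1 it was 3 higher and 1 lower (19.4% and 19.8%). The N211del line had 5 of 9 higher and 1 lower in batch 1 (48.5% and 7.1%) and 6 of 10 higher and 1 lower after 3 h in batch 2 (49.7% and 13.8%), with medians of 0.19 and 0.20 against 0.21 and 0.18. After 3 h in the INTS11 line of batch 2 it was 5 of 10 higher and 0 lower (36% and 19.3% of all genes, median 0.12 against 0.08). CCNE1, a cyclin of the G1 to S step, rose by 0.72 in the N211del line of batch 1, and CCNB1, a mitotic cyclin, fell by 0.40 in the INTS8 line. KRT13, an epithelial keratin, rose by 2.81 ± 0.36 in the INTS11 line of batch 2.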

How the data were processed

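TT-seq values from 24 libraries were used, with groups, times and replicate numbers from the titles and characteristics; the treatment protocol gives 3 h for all. The deposited unit is FPKM, per the file headers. The submitters' processing notes name STAR 2.7.5c, DESeq2 1.26.0, Picard 2.23.3, Trim Galore 0.6.6 and SAMtools 1.9, and hg19 beside mm10 with no role for either build. The kit was stranded, per the labels' protocols, but no source used here says if reads were counted by strand.

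In batch 1 each value was a whole number divided by gene length in kilobases, and in batch 2 also multiplied by a factor per library, within a tolerance of 0.02 units. The implied lengths had a median of 32168.5 bases over 7190 genes, so they hold introns. No source used here says whether or how the authors scaled batch 1 for depth.

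Log2(value + 0.1) was fitted per batch with limma 3.58.1 in R 4.3.3, 1 mean per group, with trended and robust empirical Bayes, and adjusted over all genes tested in each of 17 contrasts. With 2 libraries a group, the spread is shared by the 6 groups of a batch. The procedure was also run on simulated data without the median shifts over all genes seen here, and no result rests on that run. All KLF genes were named, with up to 2 rises and 2 falls of each partner list in the 5 comparisons of 3 h and the 2 genes most like each KLF gene with a mean of at least 1; the text gives some of these, and 1 gene that the rule names is not reported here. The members and lists were chosen with earlier results of these data known.

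Alternatives were pseudocounts of 0.01 and 1, no filter on low values, a filter at a mean of 1, median-centred libraries, a loess correction for gene length, a replicate block, only the libraries of a contrast, averaged pairs, and each library left out. Promoter sequences came from RefSeq, GRCh38.p14, and 7169 of 7223 symbols matched the symbol table. Python 3.11.15 was used with matplotlib 3.10.9, scipy 1.17.1, numpy 2.4.6 and pandas 2.3.3.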

Additional observations from a re-analysis of the deposited data

Results flagged for a closer look

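Responses of KLF genes to dTAG13 differed between lines by a test of the difference itself in 16 cases, each a difference of log2 changes from limma with an adjusted p, and none was weighed for a cause.

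At 3 h of batch 1 the INTS8 line exceeded the INTS11 line for KLF4 by 1.2 (adjusted p = 0.00011) and for KLF15 by 1.33 (adjusted p = 0.014). The N211del line exceeded the INTS11 line for KLF4 by 1.01 (adjusted p = 0.000334) and for KLF5 by 0.27 (adjusted p = 0.0152); the KLF5 value was -0.024 with centred libraries, and its call was lost without N211del DMSO replicate 2 (adjusted p = 0.0575).

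At 1 h of batch 2 the N211del line exceeded the INTS11 line for KLF4 by 1.28 (adjusted p = 2.32e-06), KLF9 by 0.41 (adjusted p = 0.00103), KLF5 by 0.34 (adjusted p = 0.000184), KLF12 by 0.28 (adjusted p = 0.00223) and KLF13 by 0.26 (adjusted p = 0.0391), and lay below it for KLF6, at -0.21 (adjusted p = 0.00447). The KLF13 call was lost in 9 of 12 fits with 1 library left out and became -0.0015 with the length correction, and the KLF12 call with centring or the length correction.

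At 3 h of batch 2 it exceeded the INTS11 line for KLF4 by 1.40 (adjusted p = 9.17e-07), KLF5 by 0.46 (adjusted p = 2.98e-05), KLF2 by 0.33 (adjusted p = 0.0306), KLF9 by 0.28 (adjusted p = 0.00701) and KLF12 by 0.21 (adjusted p = 0.0101), and lay below it for KLF16, at -0.19 (adjusted p = 0.0108). The KLF2 call was lost in 5 of 12 fits with 1 library left out, and the KLF12 difference became -0.078 (adjusted p = 0.0757) with the length correction. With centring the KLF2, KLF9 and KLF12 calls of that time were lost (0.19, 0.14 and 0.064).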

How the results depend on the processing

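Over 17 contrasts 88 KLF changes were called, and 48 of these were called in the same direction under every alternative with a value for them. With 2 libraries a group, no known depth factor in batch 1 and a median shift over all genes in several contrasts, small changes of KLF5, KLF12, KLF13 and KLF16 depend on scaling. Depth limits KLF15 and KLF14. Of the 88 calls, 62 held with centring, 61 with the length correction, 88 with a pseudocount of 0.01, 86 with a pseudocount of 1, 88 without a filter, 80 with only the libraries of a contrast and 60 with averaged pairs.

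Replicate numbers did not pair the samples, with correlations of deviations of -0.105 to 0.082 in batch 1 and -0.079 to 0.042 in batch 2. With the replicate block 85 calls held, 3 were lost and 3 were gained, and the difference between the N211del and INTS8 lines then had 1 member called instead of 0.

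Directions turned as follows, with log2 changes. With centring, KLF5 was -0.16 in the N211del line of batch 1, -0.18 at 1 h and -0.0091 at 3 h of batch 2, KLF16 -0.19 and -0.10 at those times, and in the INTS11 line at 1 h KLF16 was -0.040 and KLF9 -0.0054. In the difference between the N211del and INTS11 lines of batch 1, KLF5 was -0.024 and KLF6 -0.25, and in that line against the INTS8 line with DMSO, KLF5 was 0.066 and KLF9 0.20. With the length correction, alone and with the replicate block, KLF5 was -0.10 in the N211del line of batch 1, -0.15 at 1 h and -0.013 at 3 h, KLF16 -0.17 and -0.14, and KLF12 -0.091 at 3 h. In the INTS11 line KLF16 was -0.11, KLF4 -0.16 and KLF9 -0.026 at 1 h, and KLF4 -0.11 at 3 h. KLF9 was 0.19 in the N211del against the INTS8 line with DMSO, and in the differences between the N211del and INTS11 lines KLF13 was -0.0015 at 1 h and KLF12 -0.078 at 3 h. KLF6 was -0.16 in that difference of batch 1 with the block and the length correction. The cause was not tested.

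Counts of members called moved by over 1.5 times in these cases. The difference between the INTS8 and INTS11 lines went from 2 to 1 with a filter at a mean of 1, and that between the N211del and INTS11 lines of batch 1 from 2 to 1 with the length correction and with averaged pairs. The difference between the N211del and INTS8 lines went from 0 to 1 with a pseudocount of 1, 1 with the block and 2 with only its libraries. The INTS8 against the INTS11 line with DMSO went from 5 to 3 with averaged pairs. The INTS11 line at 1 h went from 9 to 4 with centring and with averaged pairs, and from 1 to 3 h from 2 to 1 with centring and 0 with the length correction, with and without the block, with averaged pairs and with only its libraries. With averaged pairs the N211del line from 1 to 3 h went from 5 to 2 and the difference at 3 h of batch 2 from 6 to 2.

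Leaving out each library in turn gave 2 to 5 members called in the INTS11 line, 4 to 6 in the INTS8 line and 6 to 7 in the N211del line of batch 1. The differences gave 1 to 3 (INTS8 and INTS11), 1 to 4 (N211del and INTS11) and 0 to 2 (N211del and INTS8), and the DMSO comparisons 3 to 5 and 7 in each fit. In batch 2 the INTS11 line gave 4 to 9 at 1 h, 5 to 7 at 3 h and 0 to 3 from 1 to 3 h, and the N211del line 8 to 9, 5 to 7 and 2 to 5. The differences gave 5 to 6 at both times, and the 0 h comparison 7 in each fit. Counts moved by over 1.5 times without dTAG13 replicate 2 of the INTS11 line (to 2) in batch 1. In batch 2 they did so at 1 h without INTS11 0 h replicate 2 (to 5) or 1 h replicate 2 (to 4). From 1 to 3 h they did so without INTS11 1 h replicate 1 or either 3 h library (to 0), and without N211del 1 h replicate 1 or 2 (to 3) or 3 h replicate 2 (to 2). In batch 1 baselines the count was 3 without either INTS8 DMSO library. For the differences it was 1 without INTS8 dTAG13 replicate 1 (INTS8 and INTS11), 4 without INTS11 DMSO replicate 1 and 1 without N211del DMSO replicate 2 (N211del and INTS11), and 2 without either INTS11 DMSO library or N211del dTAG13 replicate 1 (N211del and INTS8).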
